A study of Homo sapiens with 9 samples.

Results

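The genes described here encode the ligands, inhibitors and immediate target genes of bone morphogenetic protein (BMP) signalling: the ligands BMP2, BMP4 and BMP7, the secreted antagonists NOG (noggin) and FST (follistatin), the decoy receptor BAMBI, the inhibitory SMAD protein SMAD6, and the targets ID1, ID2 and ID3. They are 10 of the 16199 genes listed in at least 1 library and were found in the files by gene symbol. All 10 passed edgeR's default filter on low counts, as did 12394 genes in all. The cells were wild-type HaCaT keratinocytes, an immortalized human skin cell line that stands for 1 line only. After reaching confluence they were kept in serum-free medium alone (untreated) or in serum-free medium with EGF at 10 nM or bleogen pB1 at 1 µM, each for 24 h, with 3 replicates in each of the 3 groups. EGF is a ligand of the EGF receptor (EGFR), and bleogen pB1 is a synthetic copy of a cystine-knot peptide from the cactus *Pereskia bleo* that the study describes as an EGFR agonist. The labels number the replicates but do not say that they were separate cultures, so p-values measure only the spread between these samples, which may be technical.

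BMPs are secreted dimers that bind type I and type II receptors on the cell surface. The activated type I receptor phosphorylates SMAD1, SMAD5 and SMAD9, which enter the nucleus with SMAD4 and switch on target genes. The ID genes are among the most direct of these targets, and their proteins bind the E proteins, a class of basic helix-loop-helix factors, and keep them off DNA. The pathway is held back at each level: noggin and follistatin bind ligands outside the cell, BAMBI is a receptor-like protein without a kinase, and SMAD6 blocks receptors and SMAD1 inside the cell. SMAD6 is itself a BMP target, as is BAMBI. In the epidermis, BMP signalling is known for roles in hair follicle cycling and keratinocyte differentiation.

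Each library held between 20288417 and 21320994 expected counts (reads assigned to genes by an estimate) and listed 14078 to 14401 genes. Levels of 1 gene are given below as CPM (counts scaled to the library, with TMM factors), and levels of different genes are compared only as FPKM, which is scaled for gene length. A level of 3 counts, taken as the smallest this depth can show, was 0.141 to 0.148 CPM, a limit that covers counting error only. The 6 keratinocyte markers KRT5, KRT14, TP63, CDH1, DSP and ITGA6 were present in every library. They summed to 10916 to 12009 CPM without treatment, 8748 to 9559 after EGF and 11003 to 12730 after bleogen pB1. KRT5 was the largest part of this sum, at 7811 CPM untreated and 3604 after EGF. With EGF the markers did not move together: 3 were called higher (KRT14, TP63 and ITGA6) and 3 lower (KRT5, CDH1 and DSP). Summed levels of 5 fibroblast markers were at most 4.44 CPM, those of 4 melanocyte markers at most 1.58 CPM and those of 4 endothelial markers at most 4.78 CPM. The fibroblast sum was 0.755 to 1.35 CPM and the endothelial sum 0.289 to 0.504 CPM in EGF-treated cells, below the untreated sums of 3.13 to 4.44 and 3.44 to 4.78 CPM. The melanocyte sum was also lower after EGF, at 0.75 to 1.3 against 1.35 to 1.58 CPM. After bleogen pB1 the endothelial sum, at 1.16 to 1.91 CPM, was below the untreated sum as well, and CDH5, an endothelial cadherin gene, was called lower (edgeR adjusted p = 0.0077), whereas the fibroblast and melanocyte sums overlapped the untreated sums. The sum of 4 immune markers was 11.7 to 12.5 CPM without treatment, 10.2 to 11.6 after bleogen pB1 and at least 18.9 after EGF, nearly all of it from CD68, a lysosomal protein gene, with the leukocyte marker PTPRC at 0.29 CPM or less. The part of these shifts in the results below was not tested. In bulk RNA, fewer cells that use a gene and less RNA per cell cannot be told apart.

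In untreated cells the targets ID3 and ID1 had the highest levels of the 10 genes, at 47.6 ± 1.57 and 29.6 ± 2.90 FPKM (SD, n = 3), and NOG had the lowest, at 0.197 ± 0.0115 FPKM. FST (8.53 ± 1.09 FPKM) and BMP4 (8.49 ± 1.03 FPKM) lay between them with overlapping ranges. SMAD6 (2.86 ± 0.114 FPKM), BAMBI (1.95 ± 0.499), BMP2 (1.23 ± 0.116), ID2 (1.06 ± 0.0379) and BMP7 (0.413 ± 0.0513) followed in that order, with no overlap between neighbours. BMP4 made up 83.7% ± 2.55 of the summed FPKM of the 3 ligands. The order in bleogen pB1-treated cells began with the same ID3, ID1, FST and BMP4, and BAMBI and SMAD6 overlapped there, as did BMP2 and ID2. In EGF-treated cells FST stood first at 98.7 ± 7.24 FPKM, followed by ID3, BMP4, ID1 and NOG without overlap. BAMBI and BMP2 overlapped below them, and ID2, SMAD6 and BMP7 overlapped in turn at the bottom of the order.

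**Figure D1:**
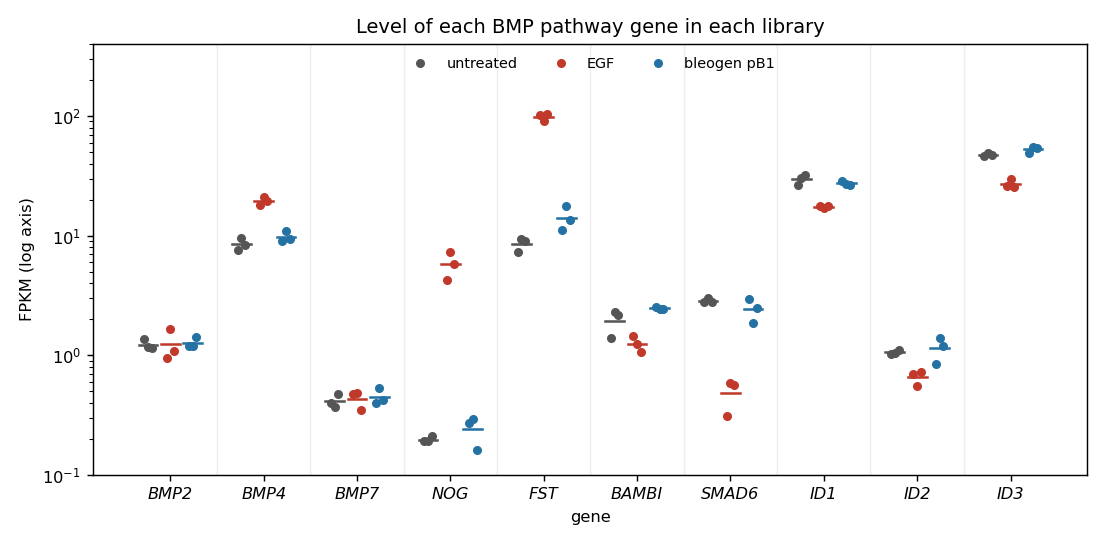
FPKM (log10 axis) of each of the 10 genes in the 3 untreated, 3 EGF-treated and 3 bleogen pB1-treated libraries; each point is 1 library and lines are group means. FST and NOG stand higher and SMAD6 lower in the EGF-treated cells, with NOG at 0.19 to 0.21 FPKM in the untreated and 4.28 to 7.28 in the EGF-treated libraries, whereas BMP2 and BMP7 overlap in all groups.

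The first question was what EGF, the positive control of the study, did to these genes. NOG, FST and BMP4 were higher after EGF, and ID1, ID3, SMAD6 and BAMBI were lower. A gene was called when edgeR's quasi-likelihood test gave a Benjamini-Hochberg adjusted p of at most 0.05 over all 12394 genes and a |log2 fold change| of at least 0.5. Of the 10 genes, 7 were called: BMP4, NOG and FST rose, and BAMBI, SMAD6, ID1 and ID3 fell. Over all genes tested 36.9% were called, 15.1% higher and 21.8% lower. The study, at the same limits but with DESeq2, reports the opposite split with EGF, more upregulated than downregulated genes. The cause of this difference was not tested. The median log2 fold change was −0.26 over the 10 genes and −0.013 over all genes. Upper-quartile factors moved the median of all genes to −0.118 and the share of calls that were higher from 41.0% to 30.2%, and under them BMP2 was the only 1 of the 10 genes whose value changed sign. The CPM ranges of the EGF-treated and untreated libraries did not overlap for 7 of the 10 genes, against 70.4% of all genes, a share close to the background. For each of these 7 genes the exact permutation test of 3 against 3 libraries gave p = 0.1 (two-sided), the smallest p it allows.

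NOG encodes noggin, a secreted protein that binds BMP2 and BMP4 and covers their receptor-binding surfaces. The gene (NCBI gene 9241) lies on chromosome 17 from 56593699 to 56595611 (plus strand, GRCh38, positions of GENCODE release 44 here and below). It had 7, 7 and 8 expected counts in the untreated libraries, 162, 273 and 228 in the EGF-treated libraries and 10, 11 and 6 in the bleogen pB1-treated libraries. Every EGF-treated library was far above both other groups, which overlapped each other. The level was 0.355 ± 0.0242 CPM untreated and 10.9 ± 2.82 CPM after EGF (SD, n = 3). This is a 30.3-fold rise, or 4.92 on the log2 scale (95% interval 4.32 to 5.53, edgeR adjusted p = 1.8e-08), at rank 14 of 12394 genes ordered from the largest rise. With limma on log2(FPKM + 1), a scale that understates changes of low genes, the change was 2.48.

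FST encodes follistatin, which binds activins tightly and several BMPs more weakly. The gene (NCBI gene 10468) lies on chromosome 5 from 53480626 to 53487134 (plus strand). It had 274, 346 and 340 expected counts in untreated, 3854, 3368 and 4051 in EGF-treated and 417, 663 and 506 in bleogen pB1-treated libraries. All 3 groups were separate, with the bleogen pB1-treated libraries between the other groups and nearer to the untreated. EGF raised FST from 15.5 ± 2.01 to 186 ± 14.1 CPM, or by 3.58 on the log2 scale (SE 0.14 and an edgeR adjusted p = 6.7e-10, rank 32 of 12394 from the largest rise). FST made up 94.4% ± 1.73 of the summed FPKM of NOG and FST after EGF, against 97.7% ± 0.271 in untreated cells.

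Among the ligands, BMP4 moved and BMP2 and BMP7 were not called. BMP4 (NCBI gene 652, chromosome 14 from 53949736 to 53958761, minus strand) had 284, 358 and 318 expected counts untreated, 675, 791 and 750 after EGF and 336, 422 and 352 after bleogen pB1. The EGF-treated libraries lay above all others, and the other groups overlapped. The rise with EGF was 2.36-fold (log2 fold change 1.24, SE 0.11, edgeR adjusted p = 1e-06). BMP2 (NCBI gene 650, chromosome 20 from 6767686 to 6780246, plus strand) had 87, 74 and 74 counts untreated, 61, 106 and 73 after EGF and 77, 78 and 93 after bleogen pB1, so that all groups overlapped. Its log2 fold change with EGF was 0.07 (95% interval −0.38 to 0.51, edgeR adjusted p = 0.79). BMP7 (NCBI gene 655, chromosome 20 from 57168753 to 57266641, minus strand) had between 29.8 and 44.8 counts in all 9 libraries and a log2 fold change with EGF of 0.15 (95% interval −0.36 to 0.65, edgeR adjusted p = 0.6). A change within these intervals was not detectable at this depth.

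SMAD6 had the largest fall of the 10 genes. It (NCBI gene 4091, chromosome 15 from 66702236 to 66782849, plus strand) had 161, 171 and 163 expected counts in untreated, 18, 34 and 34 in EGF-treated and 172, 110 and 144 in bleogen pB1-treated libraries. All EGF-treated libraries were below every other library. The level went from 7.98 ± 0.362 to 1.42 ± 0.449 CPM with EGF, 5.61-fold lower (log2 fold change −2.49, SE 0.23, edgeR adjusted p = 1.4e-06), at rank 224 of 12394 from the largest fall. With limma on log2(FPKM + 1) the change was −1.38.

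Of the ID genes, ID1 and ID3 fell with EGF, and ID2 did not pass the test. ID1 (NCBI gene 3397, chromosome 20 from 31605283 to 31606515, plus strand) had 509, 577 and 620 counts untreated, 346, 330 and 356 after EGF and 548, 529 and 516 after bleogen pB1. ID3 (NCBI gene 3399, chromosome 1 from 23557926 to 23559501, minus strand) had 1120, 1183 and 1145 counts untreated, 633, 724 and 644 after EGF and 1184, 1367 and 1311 after bleogen pB1. For both genes each EGF-treated library was below each of the other 6 libraries. ID1 was 1.62-fold lower with EGF (log2 fold change −0.69, SE 0.09, edgeR adjusted p = 1.8e-05). ID3 was 1.68-fold lower (log2 fold change −0.75, SE 0.08, edgeR adjusted p = 3.4e-06). The ratio of ID3 to ID1 in FPKM was 1.62 ± 0.141 untreated and 1.55 ± 0.169 after EGF, with overlapping ranges.

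ID2 (NCBI gene 3398, chromosome 2 from 8678845 to 8684461, plus strand) had far lower counts, 28, 28 and 30 untreated, 19, 15 and 21 after EGF and 23, 39 and 33 after bleogen pB1. The EGF-treated libraries lay below all others, but the log2 fold change of −0.61 (95% interval −1.19 to −0.03) had an edgeR adjusted p of 0.06. With upper-quartile in place of TMM factors the adjusted p was 0.03, and over all alternatives it ranged from 0.015 to 0.18. ID2 was called lower in 5 of 19 alternatives.

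BAMBI (NCBI gene 25805, chromosome 10 from 28677510 to 28682932, plus strand) was called as lower after EGF, although the groups overlapped. It had 47, 78 and 74 counts untreated, 50, 42 and 38 after EGF and 86, 85 and 84 after bleogen pB1. Untreated replicate 1 lay within the EGF-treated range, and the other untreated libraries lay above it. The fitted change was −0.58 on the log2 scale (SE 0.22 and an edgeR adjusted p = 0.032), and the exact permutation test gave p = 0.2 (two-sided). The call was lost in 9 of 19 alternatives: at a |log2 fold change| of at least 1, with DESeq2 (adjusted p = 0.057), with edgeR on the 6 libraries compared (0.054), with limma on log2(FPKM + 1) with and without the filter (log2 fold change −0.38 in both), and in 4 of the 6 fits that left out 1 library: without EGF replicate 2 (edgeR adjusted p = 0.066), EGF replicate 3 (0.12), untreated replicate 2 (0.14) or untreated replicate 3 (0.1).

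**Figure D2:**
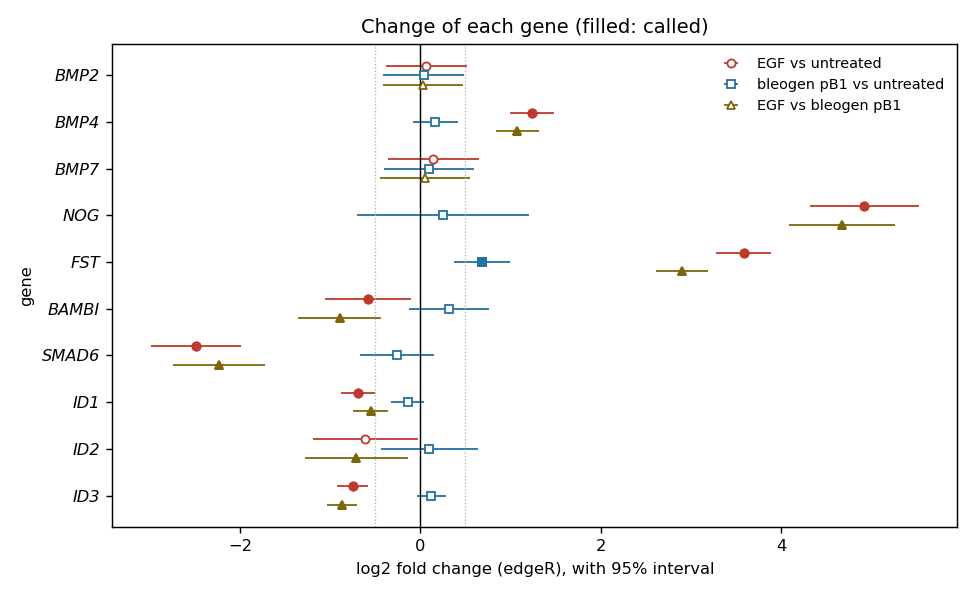
Log2 fold change (edgeR, x axis) of the 10 genes in the 3 comparisons; points are fitted values, bars are 95% intervals, filled points were called and dotted lines mark a log2 fold change of 0.5 in either direction. NOG at 4.92 and FST at 3.58 lie farthest to the right with EGF and SMAD6 at −2.49 farthest to the left, whereas FST at 0.68 is the only filled point for bleogen pB1 against untreated.

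SMAD6 and the ID genes are BMP targets that had lower values after EGF, although ID2 was not called, and their promoter windows are shown here. Not all BMP targets fell. Of 4 other BMP-SMAD target genes tested with EGF, 2 fell (ID4 and DLX3), HEY1 rose (log2 fold change 2.22) and MSX2 was not called (0.03). RefSeq (GRCh38.p14) start sites were matched by symbol for 7 of the 10 genes, and the 250 bases before the start were read, 5′ to 3′ on the strand of the gene. Capitals mark GTCT and AGAC, the SMAD box and its complement, and GGCGCC, a palindrome known to be bound by SMAD1 and SMAD5. These motifs cannot overlap each other. BAMBI is shown because its window held GGCGCC 3 times.
ID1 (chr20:31605039-31605288, plus strand): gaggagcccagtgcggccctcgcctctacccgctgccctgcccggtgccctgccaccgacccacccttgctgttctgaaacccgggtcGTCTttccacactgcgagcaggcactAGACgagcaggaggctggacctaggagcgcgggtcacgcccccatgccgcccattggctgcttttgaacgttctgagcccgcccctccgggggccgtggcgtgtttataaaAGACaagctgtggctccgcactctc
ID2 (chr2:8681806-8682055, plus strand): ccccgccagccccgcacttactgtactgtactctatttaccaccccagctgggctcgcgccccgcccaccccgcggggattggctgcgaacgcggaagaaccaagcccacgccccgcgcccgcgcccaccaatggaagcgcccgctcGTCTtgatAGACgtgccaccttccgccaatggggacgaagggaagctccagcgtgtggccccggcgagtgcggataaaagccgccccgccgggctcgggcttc
ID3 (chr1:23559502-23559751, minus strand): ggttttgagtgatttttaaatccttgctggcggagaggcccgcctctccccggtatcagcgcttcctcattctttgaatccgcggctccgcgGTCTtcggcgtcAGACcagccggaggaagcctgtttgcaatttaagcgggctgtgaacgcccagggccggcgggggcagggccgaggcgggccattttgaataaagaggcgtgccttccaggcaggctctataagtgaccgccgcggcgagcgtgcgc
SMAD6 (chr15:66701986-66702235, plus strand): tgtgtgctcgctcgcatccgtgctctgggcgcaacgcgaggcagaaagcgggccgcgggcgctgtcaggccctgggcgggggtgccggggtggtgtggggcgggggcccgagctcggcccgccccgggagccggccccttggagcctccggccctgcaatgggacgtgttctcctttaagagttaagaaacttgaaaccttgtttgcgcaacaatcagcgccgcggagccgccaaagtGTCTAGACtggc
BAMBI (chr10:28677271-28677520, plus strand): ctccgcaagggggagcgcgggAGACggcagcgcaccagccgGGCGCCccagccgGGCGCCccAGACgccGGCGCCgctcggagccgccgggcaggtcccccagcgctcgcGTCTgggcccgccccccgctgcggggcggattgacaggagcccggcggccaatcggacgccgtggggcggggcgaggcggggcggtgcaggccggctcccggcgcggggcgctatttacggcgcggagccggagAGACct

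GGCGCC was found in the BAMBI window, 209, 196 and 181 bases before the start, and in 1 of 3 BMP4 windows, but not in those of ID1, ID2, ID3, SMAD6 or FST. Of 35116 windows of the same length, 16.4% held it. GTCT or AGAC was found in the windows of all 5 genes printed, 2 to 4 times each, and in 77.5% of all windows, so its presence does not set these genes apart. In SMAD6 both boxes stood together as GTCTAGAC just before the start, which 64 of 35116 windows (0.182%) held, a motif picked after the windows were seen. A match of letters is not a binding site, and no match says only that the letters are absent from these 250 bases.

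The levels of the 3 ligands and of NOG and FST were also summed by role. The NOG and FST sum was 8.72 ± 1.09 FPKM without treatment, 104.5 ± 6.11 after EGF and 14.3 ± 3.23 after bleogen pB1 (SD, n = 3). The ligand sum was 10.1 ± 0.926, 21.1 ± 1.90 and 11.5 ± 1.03 FPKM in the same order. The NOG and FST sum per ligand sum was therefore 0.804 to 0.921 in untreated, 4.23 to 5.50 in EGF-treated and 1.07 to 1.41 in bleogen pB1-treated libraries. These 3 ranges did not overlap. Other secreted antagonists and ligands lie outside these sums, so the ratio is not that of all antagonists to all ligands. Among those left out, NBL1 was at 41.9 FPKM untreated and 47.7 after EGF. SOSTDC1 was at 4.88 and 0.347 FPKM, and GDF11, a growth factor related to myostatin, at 3.30 and 6.05 FPKM, in the same order. The summed ID level was 78.3 ± 3.92 FPKM untreated, 45.0 ± 1.97 after EGF and 81.3 ± 2.78 after bleogen pB1, so that only the EGF-treated cells stood apart. NOG per BMP4 was 0.0198 to 0.0252 in untreated and 0.239 to 0.347 in EGF-treated libraries, and in bleogen pB1-treated libraries it was 0.0172 to 0.0298, around the untreated range. These are levels of RNA and say nothing of the amounts of protein.

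**Figure D3:**
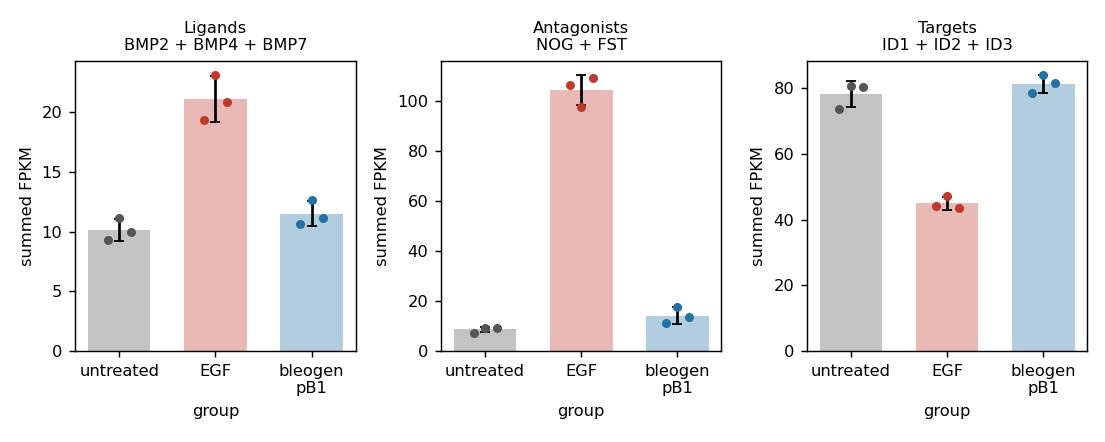
Summed FPKM of the 3 ligands, of NOG and FST, and of the 3 ID genes in each group; points are libraries, bars are means that start at 0, and error bars are SD (n = 3). The NOG and FST sum is 8.72 in untreated and 104.5 in EGF-treated cells, and the ID sum is 78.3 and 45.0.

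The second question was what bleogen pB1 did to the same genes. FST rose and no other gene of the 10 was called, at a background of 1.48% of all genes called, 0.218% higher and 1.26% lower. The untreated libraries are shared with the EGF comparison, so both sets of values rest on the same baseline. The median log2 fold change was 0.11 over the 10 genes and −0.001 over all genes. The CPM ranges were separate for FST and BAMBI, 2 of the 10 genes, against 29.1% of all genes.

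FST was 1.60-fold higher after bleogen pB1, at 24.8 ± 5.51 against 15.5 ± 2.01 CPM, or 0.68 on the log2 scale (SE 0.14 and an edgeR adjusted p = 0.021, exact permutation p = 0.1). It stood at rank 80 of 12394 from the largest rise. Bleogen pB1 replicate 2 had the most FST and replicate 1 the least. The call was lost without bleogen pB1 replicate 2 (log2 fold change 0.49, edgeR adjusted p = 0.078), bleogen pB1 replicate 3 (0.071), untreated replicate 1 (0.13) or untreated replicate 3 (0.062), and the log2 fold change stayed between 0.49 and 0.82 over the 6 such fits.

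The other 9 genes were not called with bleogen pB1, and the intervals say how large a change the data leave room for. For ID1 and ID3 these were narrow: the log2 fold change of ID1 was −0.14 (95% interval −0.32 to 0.05) and that of ID3 was 0.12 (−0.04 to 0.28). For BMP4 it was 0.17 (−0.08 to 0.41), and for SMAD6 −0.26 (−0.67 to 0.15). SMAD6 was lowest in bleogen pB1 replicate 2, with 110 counts, and no lower than most untreated libraries in replicate 1, with 172. For NOG, with 6 to 11 counts per library, the interval ran from −0.70 to 1.20 around 0.25, so that a change within that range was not detectable at this depth. BAMBI was at 84 to 86 counts in all 3 bleogen pB1-treated libraries, above each untreated library, with a log2 fold change of 0.32 (95% interval −0.12 to 0.76, edgeR adjusted p = 0.39). BMP2, BMP7 and ID2 had log2 fold changes of 0.04, 0.09 and 0.10, with edgeR adjusted p of 0.94, 0.85 and 0.85. Their 95% intervals were wider than those of ID1 and ID3, at −0.41 to 0.48, −0.41 to 0.60 and −0.44 to 0.64.

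The third comparison set EGF directly against bleogen pB1. Both treatments lasted 24 h, but EGF was used at 10 nM and bleogen pB1 at 1 µM, so the values compare these treatments and not the molecules at 1 dose. Of the 10 genes, 8 were called, at a background of 28.8% of all genes (10.8% higher in EGF and 18.0% lower). With upper-quartile factors the share of calls that were higher was 28.8% instead of 37.6%, and BMP2 and BMP7, which were not called, changed sign. The CPM ranges were separate for the same 8 genes, against 62.4% of all genes. NOG was 25.5-fold, FST 7.49-fold and BMP4 2.10-fold higher after EGF than after bleogen pB1 (log2 fold changes 4.67, 2.90 and 1.07, edgeR adjusted p = 3.2e-08, 4.1e-09 and 4.6e-06). SMAD6 was 4.70-fold lower (log2 fold change −2.23, SE 0.23, edgeR adjusted p = 5.5e-06). ID1, ID2 and ID3 had log2 fold changes of −0.55, −0.71 and −0.87, with edgeR adjusted p of 0.00017, 0.034 and 1.4e-06. BAMBI was 1.86-fold lower (log2 fold change −0.89, SE 0.21, edgeR adjusted p = 0.0031), and here its groups did not overlap. The ID2 call was lost in 5 of the 6 fits that left out 1 library (edgeR adjusted p 0.057 to 0.13, and 0.016 in the fit without bleogen pB1 replicate 1, where it held) and in 12 of 19 alternatives in all. The others were DESeq2 (adjusted p = 0.11), edgeR on the 6 libraries compared (0.059), with the replicate block (0.050) or with no count filter (0.051), limma on log2(FPKM + 1) with and without the filter (log2 fold change −0.37 in both), and a |log2 fold change| of at least 1. BMP2 (log2 fold change 0.03, 95% interval −0.42 to 0.47) and BMP7 (0.05, −0.45 to 0.55) were not called.

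**Figure D4:**
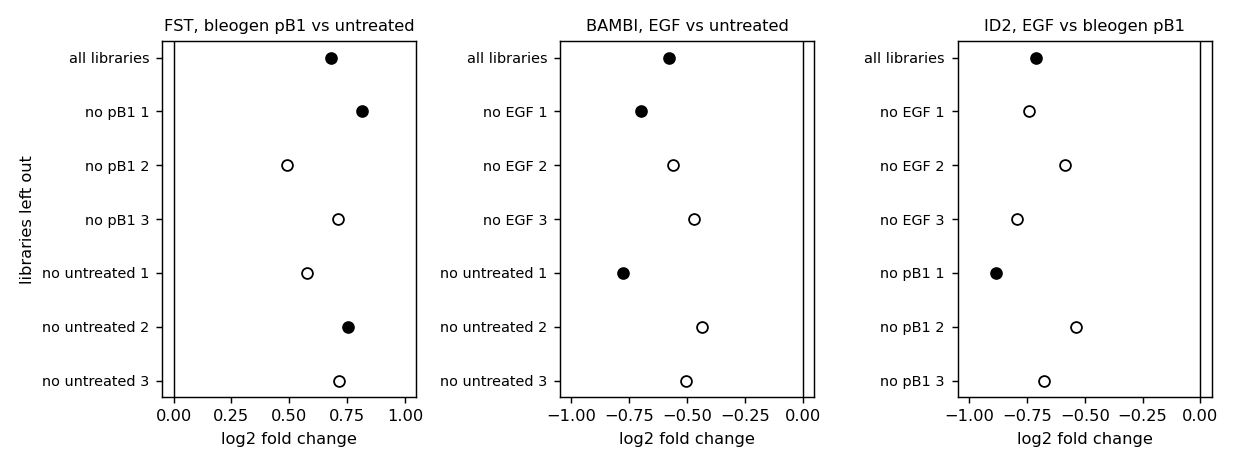
Log2 fold change (edgeR, x axis) of FST with bleogen pB1, of BAMBI with EGF and of ID2 in EGF against bleogen pB1, with all libraries and in 6 fits that each left out 1 library; filled points were called. FST with bleogen pB1 and BAMBI with EGF stay called in 2 of 6 fits and ID2 in EGF against bleogen pB1 in 1 of 6, and no point crosses 0.

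The files also give an average transcript length per gene and library, which moves when the mix of transcripts moves. BMP4, FST and ID1 had lengths that varied, and the other 7 genes had 1 length each. FST averaged 1899 to 1912 bases in untreated, 1881 to 1889 in EGF-treated and 1878 to 1891 in bleogen pB1-treated libraries, so that both treatments lay below the untreated range (exact permutation test, two-sided, p = 0.1 each, the smallest possible). BMP4 was shorter after EGF, at 1870 to 1904 against 1908 to 1922 bases (exact permutation p = 0.1), and overlapped the untreated range after bleogen pB1. ID1 overlapped in all groups. Of 7568 genes with varying length, 19.4% had separate ranges with EGF and 10.5% with bleogen pB1.

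Positions of the genes may bear on these values as well. BMP4, BMP7 and ID2 each overlap a long non-coding RNA gene on the opposite strand (by 4091, 995 and 3020 bases, BMP7-AS1 and ID2-AS1 among them), and SMAD6 overlaps another such gene on its own strand by 707 bases. These overlaps are of whole gene spans, introns included, and overlap of the exons counted was not examined. The non-coding genes are not listed in the data analysed, and the sources used here do not state whether the counting used the strand. Whether reads of the partners enter these values was not tested.

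The other genes of the pathway were taken from 10 lists by role, 74 genes in all, of which 65 were listed and 44 were tested. With EGF 8 of the 44 rose, 12 fell and 24 were not called, with a median log2 fold change of −0.17, against 15.1% higher, 21.8% lower and a median of −0.013 over all genes tested. With bleogen pB1, 0 of the 44 were called by edgeR, and DESeq2 and limma also called 0. An unadjusted edgeR p under 0.05 was seen for 11, which is not read as a result about these lists. The share of all genes under that limit was not counted, and low values were common. ID1, at an unadjusted edgeR p of 0.13, stood at rank 4304 of 12394 genes from the smallest p. EGF against bleogen pB1 gave 5 higher and 14 lower, against 10.8% and 18.0% of all genes. The single lists hold 1 to 8 tested genes, and their counts below are to be read against the same 36.9% called with EGF over all genes.

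Among other ligands, GDF11, a growth factor related to myostatin, rose with EGF from 305, 328 and 321 to 618, 559 and 605 counts (log2 fold change 0.93, edgeR adjusted p = 6.8e-07). BMP5 went from 14, 23 and 19 to 0, 3 and 3 counts, at or below the level of 3 counts. BMP8A went from 19.01, 21 and 35.02 to 8, 2 and 6.97 counts, the lowest of them below that level. Both were called lower (edgeR adjusted p = 0.00023 and 0.00071). Of 6 receptors tested, 2 fell and none rose. BMPR2, the type II BMP receptor, was 1.80-fold lower with EGF (log2 fold change −0.85, edgeR adjusted p = 1.9e-06), and the type I receptor BMPR1B was 2.75-fold lower at 7 to 14 counts (−1.46, 0.00076). The co-receptor NEO1 fell at low counts, from 20, 16 and 10 to 11, 3 and 1 (edgeR adjusted p = 0.04), with overlapping groups.

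Of 7 other secreted antagonists and modulators tested, SOST rose and SOSTDC1 fell with EGF, and the other 5 were not called. SOSTDC1 (also called ectodin or wise), an inhibitor of BMP and Wnt signals, had 202, 178 and 163 counts untreated, 17, 8 and 15 after EGF and 267, 180 and 250 after bleogen pB1. With EGF it changed by −3.72 on the log2 scale (SE 0.25 and an edgeR adjusted p = 9.1e-08), a 13.2-fold fall. SOST, which encodes the Wnt inhibitor sclerostin, rose 1.64-fold (edgeR adjusted p = 0.00034). INHBA, the chain of activin A and a ligand that follistatin binds, was the only activin chain tested, and it rose 3.13-fold (log2 fold change 1.65, edgeR adjusted p = 6.4e-08). FST per INHBA in FPKM was 2.90 to 3.97 in untreated and 11.3 to 14.7 in EGF-treated libraries, without overlap.

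Of 5 proteases that process ligands or chordin, FURIN (log2 fold change 0.64, edgeR adjusted p = 2.4e-06) and PCSK6 rose, and BMP1 (−0.87, 2.9e-06) and PCSK5 (−1.03, 3.6e-06) fell. FURIN and PCSK5 cut ligand precursors, and BMP1, despite its name, is a metalloprotease that cleaves chordin. Among 3 SMADs of the BMP branch, SMAD5 rose 1.49-fold (edgeR adjusted p = 2.3e-05). Of 8 other intracellular inhibitors, SMURF2, a ubiquitin ligase, rose (log2 fold change 0.72, edgeR adjusted p = 2.4e-06), and SKIL (−0.53, 0.00067) and the inhibitory SMAD7 (−0.56, 0.0062) fell. SMAD7 thus went the way of SMAD6 but by less, from 207, 211 and 174 to 116, 121 and 156 counts.

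Of 4 other BMP-SMAD target genes tested, 2 fell, 1 rose and 1, MSX2, was not called (log2 fold change with EGF 0.03, edgeR adjusted p = 0.86). DLX3, a homeobox factor of the differentiating epidermis, had 138, 124 and 125 counts untreated, 67, 29 and 43 after EGF and 128, 71 and 63 after bleogen pB1 (log2 fold change with EGF −1.44, edgeR adjusted p = 0.0009). ID4, the fourth ID gene, fell with EGF from 11, 7 and 7 to 1, 1 and 3 counts (edgeR adjusted p = 0.0045), at or below the level of 3 counts. HEY1, a target of both Notch and BMP signals, went the other way, from 12 counts in each untreated library to 51, 59 and 55 (log2 fold change 2.22, edgeR adjusted p = 4.3e-06). Of the 3 E proteins that bind ID proteins, edgeR, DESeq2 and limma called 0. All 3 had an unadjusted edgeR p under 0.05, as did most genes with EGF. ID2, at an unadjusted edgeR p of 0.04, stood at rank 8377 of 12394 genes from the smallest p. TCF3 had a log2 fold change of 0.31, TCF4 of −0.35 and TCF12 of −0.35 (edgeR adjusted p = 0.00012, 0.026 and 0.0029), all under the limit of 0.5.

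**Figure D5:**
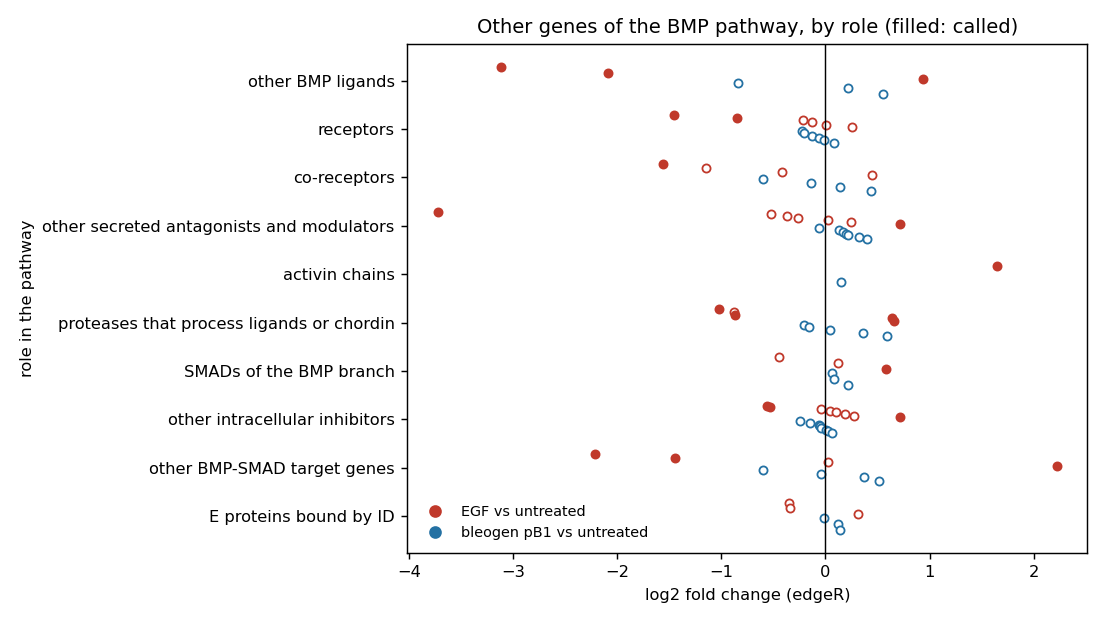
Log2 fold change (edgeR, x axis) of the tested genes of 10 other role lists of the BMP pathway, 1 row per list, with EGF (red) and with bleogen pB1 (blue) against untreated; points are genes and filled points were called. With EGF 8 genes rise and 12 fall, SOSTDC1 at −3.72 being the farthest to the left, and no point is filled for bleogen pB1.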

How the data were processed

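RNA of HaCaT cells was sequenced as polyadenylated RNA in 9 libraries, 3 per group, and groups were taken from the sample titles. The authors had reads mapped to GRCh38.p12 by the sequencing provider's online system; the counting program is not given in the sources used here. For each gene the authors deposited an expected count, an estimate not scaled for depth, and an FPKM, scaled for gene length and depth. A gene absent from a file counts as 0. Each library held 20288417 to 21320994 expected counts.

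Rounded expected counts were fitted with edgeR 4.0.16 in R 4.3.3: filterByExpr (12394 genes), TMM factors, glmQLFit and glmQLFTest over all 9 libraries with 1 coefficient per group (6 residual degrees of freedom), with p-values adjusted by Benjamini-Hochberg. Calls needed an adjusted p of at most 0.05 and a |log2 fold change| of at least 0.5, the thresholds of the study, which used DESeq2. The SE was obtained from F and the log2 fold change. Exact permutation tests compared the CPM of 3 libraries with 3. The alternatives were DESeq2 1.42.0, limma 3.58.1 on log2(FPKM + 1) and log2(FPKM + 0.1), other scaling factors, filters and fold-change limits, the 6 libraries of a comparison alone, a block for the replicate number, and each library left out. The scripts were tested on simulated data.

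Named genes are the 10 members and, per list of the pathway, the genes called with EGF at the smallest adjusted p (at most 3) and any called with bleogen pB1. PCSK6, MSX2, NBL1 and the E proteins are named beyond this rule. The members and lists were chosen with earlier results of these data known. Promoter windows are from RefSeq, GRCh38.p14, whose primary coordinates are those of the build of the files.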

Additional observations from a re-analysis of the deposited data

How the results depend on the processing

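BMP4, NOG, FST and SMAD6 kept their direction and call with EGF, against untreated cells and against bleogen pB1, under all alternatives that gave a value, and ID1 and ID3 did so except at a |log2 fold change| of at least 1. Their size did not stay the same: NOG ranged over a log2 fold change of 2.48 to 5.10 with EGF and 2.43 to 4.85 in EGF against bleogen pB1, and SMAD6 over −2.63 to −1.38 and −2.39 to −1.20, the smallest changes coming from limma on log2(FPKM + 1), which understates changes of low genes. NOG gave no value with at least 10 counts in every library and, for bleogen pB1, with the 6 libraries alone. BMP7 gave none under the FPKM filter, and BMP7 and ID2 none with DESeq2 for bleogen pB1. At a |log2 fold change| of at least 1, 4 of the 10 genes were called with EGF, 4 in EGF against bleogen pB1 and 0 with bleogen pB1 (edgeR, 1 of the 10 at an unadjusted p under 0.05), and 1892, 1458 and 31 of all genes. Adjusted p alone called 8187, 7214 and 509 of all genes, against 4578, 3564 and 183 with the fold limit. With limma on log2(FPKM + 1) of all genes listed in at least 3 libraries, bleogen pB1 called 114 genes and 0 of the 10 (1 at an unadjusted p under 0.05). Leaving out 1 library gave 102 to 436 genes and 0 to 1 of the 10 with bleogen pB1, with 102 genes without bleogen pB1 replicate 3 or untreated replicate 1, 109 without bleogen pB1 replicate 2 and 436 without bleogen pB1 replicate 1. The cause was not tested.

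Sign changes were seen only among BMP2, BMP7 and ID2, none of them called there. BMP2 with EGF had a log2 fold change of −0.0299 with limma on log2(FPKM + 0.1), −0.0099 with limma on log2(FPKM + 1) with and without the filter, −0.0386 with upper-quartile factors and −0.1975 to 0.2227 with 1 library left out. In EGF against bleogen pB1, BMP2 was at −0.0788 with limma on log2(FPKM + 0.1), −0.0395 with limma on log2(FPKM + 1) with and without the filter, −0.0416 with no scaling factors, −0.0581 with upper-quartile factors and −0.2316 to 0.1884 with 1 library left out. BMP7 was there at −0.0168 with unfiltered limma, −0.0204 with no scaling factors, −0.0361 with upper-quartile factors and −0.0332 to 0.2113 with 1 library left out. With bleogen pB1 and 1 library left out, BMP2 ranged from −0.0554 to 0.116, BMP7 from −0.0634 to 0.1806 and ID2 from −0.0699 to 0.2747.

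The replicate numbers are shared between groups, but same-numbered libraries did not deviate together in all pairs: the correlations across genes of their deviations from the group means were 0.045, 0.036 and 0.004 for EGF and untreated, 0.207, −0.03 and 0.113 for bleogen pB1 and untreated, and 0.056, 0.038 and 0.027 for EGF and bleogen pB1. With the replicate number as a block, 4560, 186 and 3550 genes were called, and the 10 genes kept their calls except ID2 in EGF against bleogen pB1 (edgeR adjusted p = 0.050). Not every library correlated best with its own number. Genes with few counts, such as NOG, ID2 and BMP7, had the widest intervals.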
